A study of Mus musculus with 22 samples.

Results

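The secretory genes of club and goblet cells, the mucus- and protein-secreting cells of the airway lining, were followed in the lungs of mice that had been given Mitsui7, a long and stiff multi-walled carbon nanotube. The members are 10 genes of 20144 named on the array, taken as every probe named Scgb1a1, Scgb3a1, Scgb3a2, Cyp2f2, Bpifa1, Bpifb1, Muc5b, Muc5ac, Reg3g or Spdef. They are read by 11 probes. RefSeq accessions named the probes of 9 genes, and tables of the study named the 2 probes of Scgb3a2. Right lung RNA came from female C57BL/6 mice, 8 weeks old, 24 h after 1 intratracheal instillation under anaesthesia. Controls (n = 5) received 40 µl of vehicle, which was saline with cell-free lavage fluid of other C57BL/6 mice, and the other groups received 18 µg (n = 6), 54 µg (n = 5) or 162 µg (n = 6) of Mitsui7 per mouse in the same vehicle. The controls had therefore also been instilled, and no uninstilled mouse was analysed here. Each mouse had its own dual-colour array, with lung RNA in Cy5 and a universal reference RNA of 11 mouse cell lines in Cy3, so that levels are given as log2 of lung over reference.

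Club cells line the small airways of the mouse. They secrete secretoglobins, which are small proteins abundant in the airway lining fluid, and carry cytochrome P450 enzymes that oxidise inhaled chemicals. Goblet cells and the secretory cells of the larger airways make the gel-forming mucins, and both secrete lipid-binding and lectin proteins that act on bacteria. Goblet cells are few in the airways of healthy laboratory mice and are known to become more numerous under interleukin 13.

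All 10 genes were detected above background in each of the 5 control lungs. Type II alveolar markers were also present, with a mean log2 ratio over 8 genes between 4.14 and 4.36 in controls. The arrays lay on 7 slides, and slide was fitted together with dose. Array brightness differed between groups. The median Cy5 signal was 1.52 to 2.05 times the local background on control arrays. The range was 1.24 to 2.11 for the low dose (18 µg), 1.37 to 2.07 for the middle dose (54 µg) and 1.18 to 2.50 for the high dose (162 µg). It was under 1.4 on 6 arrays, those of 18 µg replicates 4, 5 and 6, 54 µg replicate 4 and 162 µg replicates 5 and 6, and results were also computed without them. In whole lung RNA, fewer cells of a type and less RNA per cell cannot be told apart.

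On the log2 ratio, Scgb3a2 passed the test as lower at 18 and 162 µg and Cyp2f2 at 162 µg, while the other 8 genes did not pass it at any dose. These results were lost under several of the alternatives given below. Calls required a change of 1.5-fold or more and, in limma, an adjusted p no higher than 0.05. At 18 µg, 1 of the 10 genes was called lower (Scgb3a2), against 1.52% of the 16552 expressed genes tested. At 54 µg none was called lower, with 0.163% of all genes called lower. At 162 µg, 2 were called lower (Scgb3a2 and Cyp2f2), with a background of 3.72%. None was called higher at any dose, where 0.652%, 0.272% and 3.47% of all genes were. The 10 genes had median log2 fold changes of -0.91, -0.20 and -0.36 from the low to the high dose, beside -0.02, -0.01 and -0.01 over all genes. At an unadjusted limma p under 0.05, 5 of the 10 genes stood at 18 µg, 1 at 54 µg and 2 at 162 µg, beside 22.5%, 14.1% and 29.3% of all genes. No gene was called between doses, where 1.71% of all genes were lower and 3.41% higher at 162 µg than at 18 µg, 0.0423% were called between the low and middle doses and 0% between the middle and high doses.

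**Figure D1:**
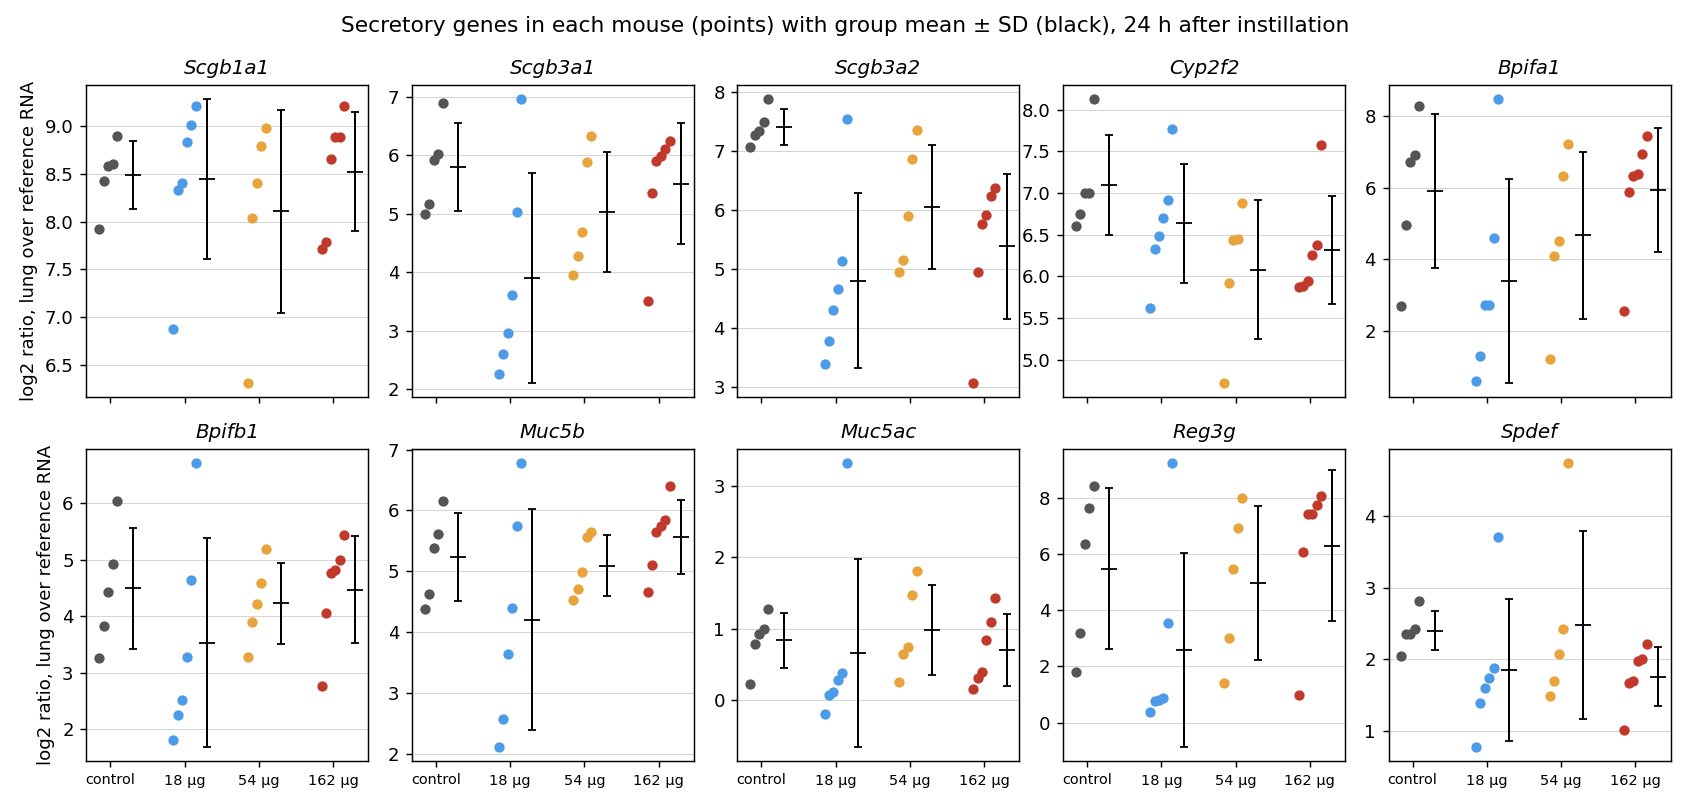
Log2 ratio of lung to reference RNA (vertical axis) for each gene in each mouse, by group, with the group mean and SD in black. Scgb3a2 is tight in the controls (7.07 to 7.88) and all 6 mice at 162 µg lie below them, whereas Reg3g already spans 1.80 to 8.41 among the controls.

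Cyp2f2 is the cytochrome P450 through which mouse club cells oxidise naphthalene. Its log2 ratio in the 5 controls was 7.00, 6.74, 7.00, 8.13 and 6.61. At 18 µg the lowest, median and highest mouse had 5.62, 6.60 and 7.77, and at 162 µg 5.87, 6.10 and 7.58. At 54 µg the 5 mice had 4.73, 6.45, 6.88, 5.92 and 6.43. Most exposed mice were low, and 3 of 6, 4 of 5 and 5 of 6 lay below every control at 18, 54 and 162 µg. The log2 fold change was -0.53 (SE 0.19, adjusted p = 0.181), -0.93 (SE 0.21, adjusted p = 0.087) and -1.004 (SE 0.19, adjusted p = 0.00507), the last a 2.01-fold reduction. Of 22 omissions of 1 mouse, only that of 54 µg replicate 3 brought the value at 54 µg past the threshold (-1.003, adjusted p = 0.0441). Over all 22 omissions its adjusted p ran up to 0.272. Between 162 µg and 18 µg the difference was -0.48 (SE 0.18, adjusted p = 0.172).

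The part of slide in the spread of Cyp2f2 was not tested. On the slide that held control replicate 4, 18 µg replicate 3 and 162 µg replicate 3, each of these mice had the highest Cyp2f2 ratio of its group (8.13, 7.77 and 7.58). Within slides, Cyp2f2 was lower than in the control of the same slide in 4 of 4 mice at 18 µg, 3 of 3 at 54 µg and 4 of 4 at 162 µg, where the differences ran from -0.87 to -0.55. The call at 162 µg was lost when slide was left out of the fit (-0.78, adjusted p = 0.329), taken as a random block (-0.88, adjusted p = 0.106) or replaced by the replicate number as a block (-0.75, adjusted p = 0.152). It was also lost under median centring (-0.91, adjusted p = 0.202) and without the 6 dimmest arrays (-1.03, adjusted p = 0.0536), and quantile normalization between arrays reduced it to -0.48 (adjusted p = 0.215).

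In the lung channel alone, Cyp2f2 separated exposed from control mice at every dose. Its Cy5 signal was 181604 to 328773 in the 5 controls. The low dose had 20333 to 118109, the middle dose 20630 to 138386 and the high dose 6880 to 124926, so all 17 exposed mice were under the lowest control. With each array scaled to its 75th percentile, the controls had a log2 Cy5 signal of 8.83 ± 0.22 (SD, n = 5). The low, middle and high doses had 7.16 ± 0.60 (SD, n = 6), 7.23 ± 0.80 (SD, n = 5) and 6.69 ± 0.82 (SD, n = 6), again without overlap with the controls. The log2 fold change in Cy5 was -1.64 at 18 µg (3.11-fold, adjusted p = 0.00988), -1.41 at 54 µg (2.67-fold, adjusted p = 0.0703) and -2.17 at 162 µg (4.50-fold, adjusted p = 0.000115). Without the 6 dimmest arrays the 3 values were -1.23 (adjusted p = 0.0264), -1.35 (adjusted p = 0.0354) and -1.88 (adjusted p = 3.46e-05). Over all genes, 1.24%, 1.03% and 3.15% had every exposed mouse below every control in this channel at the 3 doses. In Cy5 alone 2 of the 10 genes, Cyp2f2 and Scgb3a2, were called lower at 18 µg and at 162 µg and none at 54 µg, beside 1.18%, 3.21% and 0.169% of all genes.

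The Cyp2f2 signal of the reference channel was also lower on the arrays of exposed mice, although the same RNA was on every array. The log2 difference in Cy3 alone was -1.29 (SE 0.38), -0.72 (SE 0.41) and -1.49 (SE 0.38) at 18, 54 and 162 µg, none of them called, and at 162 µg all 6 arrays were below every control array. The ratio divides by this signal. On the slide with the highest Cyp2f2 ratios the unscaled Cy3 signal was 444, 513 and 648, among the lowest of the 22 arrays. With each array scaled as for Cy5, log2 Cy3 there was 1.95 (control replicate 4), 1.29 (18 µg replicate 3) and 1.45 (162 µg replicate 3). Below all of these were 18 µg replicates 4 (0.75) and 5 (0.80), 54 µg replicate 4 (1.16) and 162 µg replicate 6 (0.77). The Cyp2f2 ratios of those lower arrays ran from 5.92 to 6.92. The part of the reference channel in the change of the ratio was not tested.

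Scgb3a2 is a small secretoglobin of the airway epithelium. Its brighter probe had log2 ratios of 7.07, 7.88, 7.28, 7.35 and 7.50 in the controls. The lowest, median and highest mouse had 3.39, 4.48 and 7.55 at 18 µg and 3.08, 5.84 and 6.38 at 162 µg, and the 5 mice at 54 µg had 5.16, 5.91, 6.88, 4.95 and 7.37. The controls were the tightest group, and all 6 mice at 162 µg, 5 of 6 at 18 µg and 4 of 5 at 54 µg were below each of them. Of all genes, 4.63% had every mouse at 162 µg below every control, and 2.06% at 18 µg and 1.84% at 54 µg. In the opposite direction the shares were 1.43%, 1.53% and 3.79%, with no member among them. Scgb3a2 was the only member so separated on the log2 ratio, and only at 162 µg.

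The log2 fold change of Scgb3a2 was -2.48 (SE 0.58, adjusted p = 0.0441) at 18 µg, a 5.56-fold reduction, -0.96 (SE 0.62, adjusted p = 0.754) at 54 µg and -2.03 (SE 0.58, adjusted p = 0.0466) at 162 µg, a 4.09-fold reduction. The second probe gave -2.39 (adjusted p = 0.0332), -1.28 (adjusted p = 0.516) and -2.06 (adjusted p = 0.0243). In Cy5 alone the changes of the brighter probe were -2.47 (adjusted p = 0.00518), -1.10 (adjusted p = 0.723) and -2.14 (adjusted p = 0.00332), close to those of the ratio. The Cy3 signal of the brighter probe was within 23 to 89 on all arrays, and well above background on only 13 of 22. The difference between 162 µg and 18 µg was 0.45, with a 95% interval from -0.70 to 1.59.

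Both calls of Scgb3a2 lay near the threshold. At 18 µg the call was lost when any 1 of 15 mice was left out, with a log2 fold change between -2.99 and -2.24 and an adjusted p between 0.0102 and 0.147 over all 22 omissions. It remained without control replicate 4, 18 µg replicate 3, 54 µg replicate 3 or 5, or 162 µg replicate 2, 5 or 6. At 162 µg it was lost in 14 omissions (adjusted p from 0.0147 to 0.151) and remained without control replicate 4, 18 µg replicate 3, 4 or 6, 54 µg replicate 3 or 5, or 162 µg replicate 2 or 5. Without the 6 dimmest arrays the log2 fold change at 18 µg was -1.67 (adjusted p = 0.23), and at 162 µg -1.91 (adjusted p = 0.039). Both calls were also lost with the deposited log2 table (adjusted p = 0.0799 and 0.0677 at 18 and 162 µg), with no slide term (0.0535 and 0.0697) and without normalization (0.131 and 0.295), that at 18 µg with only the compared groups in the fit (0.114) and that at 162 µg under median centring (0.0629).

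**Figure D2:**
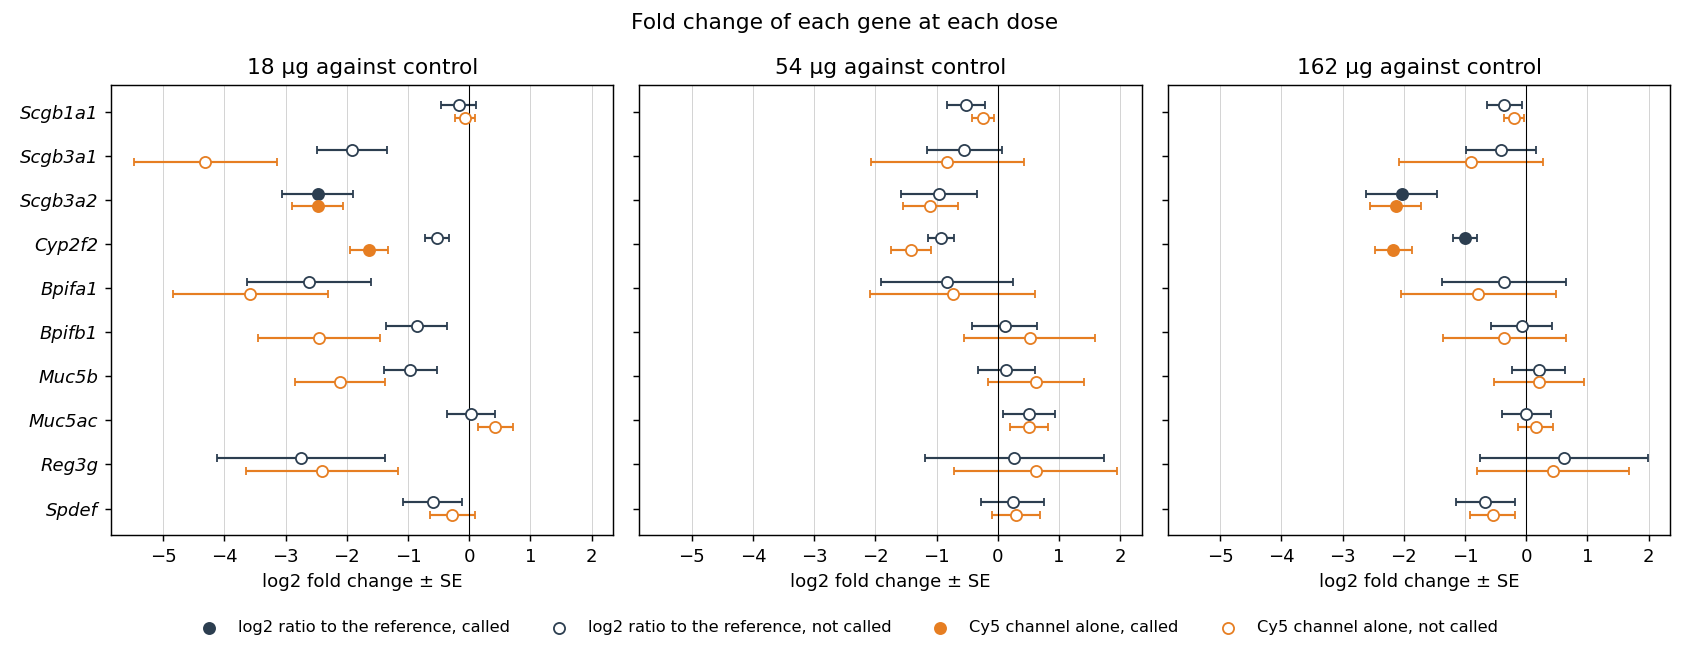
Log2 fold change against control with its SE (horizontal axis) for each gene, for the log2 ratio (dark) and for the Cy5 channel alone (orange). Filled symbols passed the test, and these are Scgb3a2 at 18 and 162 µg in both, Cyp2f2 at 162 µg in both and Cyp2f2 at 18 µg in Cy5 alone.

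Scgb1a1 encodes the club cell secretory protein and gave one of the brightest spots of the array, with a Cy5 signal of 260433 to 623310.5. Controls had a log2 ratio of 8.49 ± 0.36 (SD, n = 5). The low, middle and high doses had 8.44 ± 0.84 (SD, n = 6), 8.11 ± 1.07 (SD, n = 5) and 8.52 ± 0.63 (SD, n = 6). The groups overlapped throughout. The 95% intervals of its log2 fold change ran from -0.78 to 0.44, from -1.16 to 0.14 and from -0.97 to 0.25 at the 3 doses. The Cy5 saturation mark, taken as the median over replicate spots, was set on no array, and marks of single spots were not counted. The probe is printed 10 times per array, and the SD over these spots was 0.0781 to 0.283 across arrays, with a median of 0.144.

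Scgb3a1 encodes a further secretoglobin of the airway epithelium. The 5 controls had log2 ratios of 5.17, 6.02, 5.92, 6.89 and 4.99. At 18 µg the lowest, median and highest mouse had 2.25, 3.29 and 6.96, at 162 µg 3.50, 5.94 and 6.25, and the 5 mice at 54 µg had 4.69, 4.28, 5.88, 3.96 and 6.34. At 18 µg 4 of 6 mice were below every control, and 1, replicate 3, was above every control. The log2 fold change was -1.92 (SE 0.57, adjusted p = 0.0978) at 18 µg, -0.55 (SE 0.61, adjusted p = 0.896) at 54 µg and -0.41 (SE 0.57, adjusted p = 0.812) at 162 µg. Leaving out 54 µg replicate 5 (-1.73, adjusted p = 0.0457) or 162 µg replicate 6 (-2.05, adjusted p = 0.0495) brought the value at 18 µg past the threshold. These were 2 of 22 omissions, and over all of them the adjusted p ran up to 0.224. The log2 ratio of Scgb3a1 was 1.51 higher at 162 µg than at 18 µg (SE 0.53, adjusted p = 0.139). This difference passed the threshold in 2 of 22 omissions, without 18 µg replicate 3 (1.97, adjusted p = 0.0491) or 54 µg replicate 5 (1.51, adjusted p = 0.0399). Its adjusted p ran up to 0.347 over all of them.

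The ratio compressed the differences of Scgb3a1 between mice. Its Cy5 signal ran from 266 to 220524.5. The Cy3 signal of the reference was 37 in the mouse with the lowest Cy5 and 739 in the mouse with the highest, and it reached 3461.5 in 54 µg replicate 5. Scaled to the 75th percentile of each channel, Cy5 spanned 9.93 log2 units over the 22 mice and Cy3 7.29, and the 2 channels had r = 0.98 across the mice. For all expressed genes the median span was 1.46 in Cy5 and 1.01 in Cy3. Cy3 spans above the 95th percentile of all genes (2.24) were also found for Bpifa1 (5.83), Bpifb1 (6.36), Muc5b (4.98), Reg3g (3.99) and Cyp2f2 (3.11), and not for Scgb1a1 (1.94), Scgb3a2 (2.02), Muc5ac (1.82) or Spdef (0.76). In Cy5 alone the log2 fold change of Scgb3a1 at 18 µg was -4.31 (SE 1.17, adjusted p = 0.095), more than its -1.92 on the ratio.

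**Figure D3:**
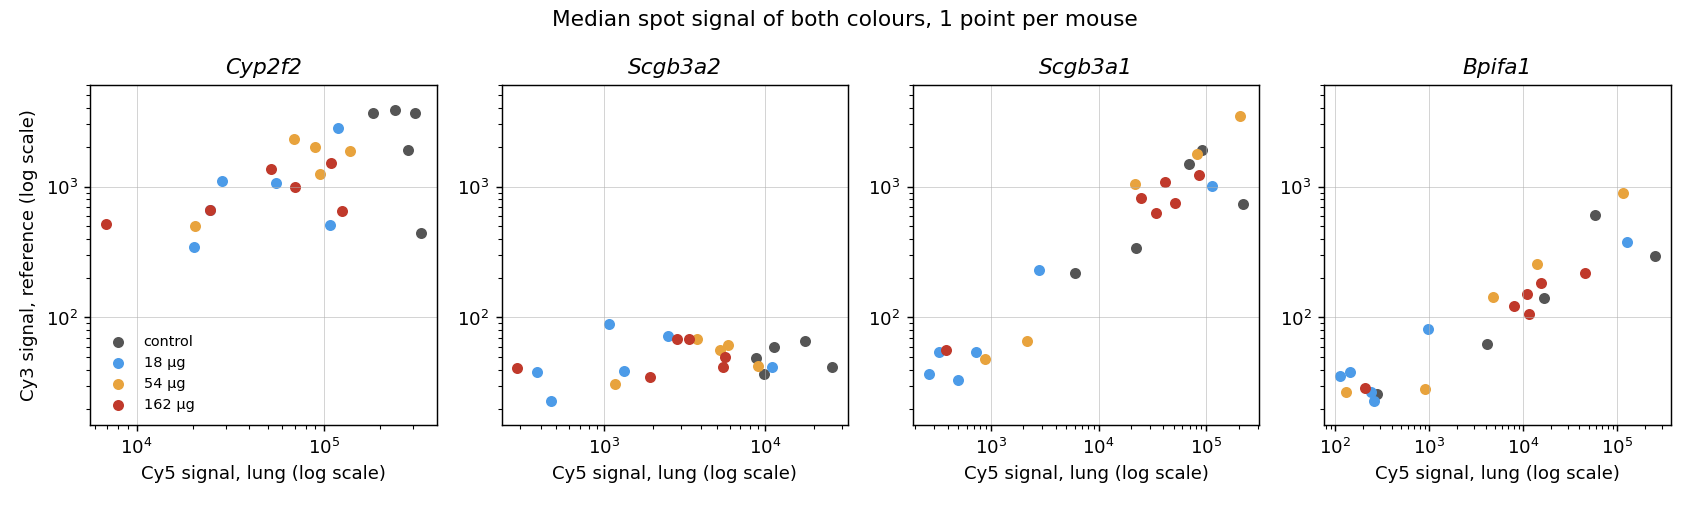
Median Cy5 signal of lung RNA (horizontal) against median Cy3 signal of the reference RNA (vertical), both on log axes, 1 point per mouse and coloured by group. The Cy3 signal rises with Cy5 for Scgb3a1 and Bpifa1 although the reference is the same RNA on every array. For Scgb3a2 it stays between 23 and 89, near background, and was well above background on only 13 of 22 arrays. For Cyp2f2 all control points lie to the right of all exposed mice.

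Bpifa1 and Bpifb1 encode lipid-binding proteins of the airway surface that act against bacteria, and Reg3g encodes a secreted lectin that binds Gram-positive bacteria. By SD over the 22 mice, Reg3g (3.11) and Bpifa1 (2.39) were the most variable members on the log2 ratio, and Bpifb1 (1.23) was below Scgb3a2 (1.44) and Scgb3a1 (1.38). The log2 ratio of Reg3g was 3.17, 6.37, 7.65, 8.41 and 1.80 in the controls, so that the controls alone spanned 6.61. At 18 µg its lowest, median and highest values were 0.37, 0.83 and 9.23, at 162 µg 0.98, 7.43 and 8.07, and at 54 µg the 5 mice had 5.46, 3.02, 6.94, 1.404 and 8.00. At 18 µg 4 of the 6 mice were below every control while replicate 3 had the highest level of the series, and at 162 µg replicate 6 stood alone at the bottom. The median Cy5 signal of Reg3g at 18 µg was 104.5, and its Cy3 was well above background on 7 of 22 arrays. Its low ratios were therefore read close to background. The log2 fold change was -2.75 (SE 1.37, adjusted p = 0.359), 0.27 (SE 1.46, adjusted p = 0.987) and 0.61 (SE 1.37, adjusted p = 0.897) at 18, 54 and 162 µg. Between 162 µg and 18 µg it was 3.36 (SE 1.28, adjusted p = 0.176), and without 162 µg replicate 6 it was 4.50 (adjusted p = 0.0431). That was the only 1 of 22 omissions to pass the threshold, and the adjusted p ran up to 0.399 over all of them.

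Bpifa1 spanned 7.86 log2 units over the 22 mice and Reg3g 8.86. The Bpifa1 ratios of the controls were 4.96, 6.91, 6.70, 8.27 and 2.70, those of the mice at 54 µg 4.52, 4.08, 6.32, 1.21 and 7.21, and the lowest, median and highest were 0.60, 2.72 and 8.47 at 18 µg and 2.57, 6.35 and 7.43 at 162 µg. All groups overlapped. Its log2 fold change was -2.61 (SE 1.01, adjusted p = 0.211), -0.83 (SE 1.08, adjusted p = 0.919) and -0.36 (SE 1.01, adjusted p = 0.924). That of Bpifb1, which ranged from 1.81 to 6.71, was -0.86 (SE 0.50, adjusted p = 0.45), 0.11 (SE 0.53, adjusted p = 0.986) and -0.07 (SE 0.50, adjusted p = 0.972). In Cy5 alone Bpifb1 had -2.45 (SE 1.00, adjusted p = 0.213) and Bpifa1 -3.58 (SE 1.27, adjusted p = 0.213) at 18 µg.

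Muc5b is the gel-forming mucin that airway secretory cells make at rest, and Muc5ac is the one associated with goblet cells. Muc5b had a log2 ratio of 5.23 ± 0.73 (SD, n = 5) in controls, and the low, middle and high doses had 4.21 ± 1.81 (SD, n = 6), 5.09 ± 0.50 (SD, n = 5) and 5.56 ± 0.61 (SD, n = 6). Its log2 fold change at 18 µg was -0.97 (SE 0.43, adjusted p = 0.294) on the ratio and -2.11 (SE 0.74, adjusted p = 0.213) in Cy5 alone. The ratio was 1.17 higher at 162 µg than at 18 µg (SE 0.40, adjusted p = 0.128). Without 18 µg replicate 3 this difference was 1.51 (adjusted p = 0.0481), the only 1 of 22 omissions to pass the threshold. Over all of them the adjusted p ran up to 0.306. Muc5ac was dim, with a Cy5 signal of 76.5 to 1187.5, and its Cy5 was well above background on 19 of 22 arrays. The log2 ratio of controls was 0.84 ± 0.39 (SD, n = 5), beside 0.66 ± 1.32 (SD, n = 6), 0.98 ± 0.64 (SD, n = 5) and 0.70 ± 0.50 (SD, n = 6) at the 3 doses. The 95% intervals of its log2 fold change were -0.81 to 0.86, -0.37 to 1.404 and -0.83 to 0.84.

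Spdef encodes the transcription factor that drives goblet cell differentiation. The controls had log2 ratios of 2.04, 2.42, 2.35, 2.82 and 2.36. It was below all of them in 5 of 6 mice at 18 µg, 2 of 5 at 54 µg and 5 of 6 at 162 µg, with 18 µg replicate 3 (3.70) and 54 µg replicate 5 (4.74) above all of them. The log2 fold change was -0.59 (SE 0.48, adjusted p = 0.626), 0.25 (SE 0.52, adjusted p = 0.962) and -0.67 (SE 0.48, adjusted p = 0.543). When the fit held only the 162 µg and control arrays it was -0.65 at that dose (adjusted p = 0.0223). Slide stayed in that fit, so only mice on the 4 slides that held both groups inform it.

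Scgb3a1, Bpifa1, Bpifb1, Reg3g and Muc5b rose and fell together from mouse to mouse. All 10 pairs of these genes had a Pearson r between 0.84 and 0.96 over the 22 mice and a Spearman rho between 0.86 and 0.97. Each had a permutation p of 1e-05, the smallest that 100000 resamples can give, and an adjusted p of 4.5e-05 over the 45 pairs of members. The pair with the highest r was Bpifa1 and Reg3g (r = 0.96, rho = 0.95). Without the 2 mice farthest from the median of Bpifa1 its r was 0.96, and on the residuals of dose and slide 0.94. The 10 pairs had a residual r between 0.65 and 0.95. The other mucin, Muc5ac, had r between 0.62 and 0.75 with these genes over the 22 mice.

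Muc5ac and Spdef varied together less tightly (r = 0.76, rho = 0.73, permutation p = 0.00045, adjusted p = 0.00107), and without the 2 mice farthest in Muc5ac r was 0.65. Scgb3a2 followed Spdef (r = 0.73, rho = 0.87, permutation p = 4e-05, adjusted p = 0.000138) and Scgb3a1 (r = 0.78, rho = 0.76, permutation p = 3e-05, adjusted p = 0.000123). Scgb1a1 stood outside. Its r with the 5 co-varying genes was between 0.14 and 0.34, with adjusted p from 0.151 to 0.57, and its pair with Cyp2f2 had r = 0.72 (rho = 0.60, permutation p = 0.00016, adjusted p = 0.00048) and r = 0.49 without the 2 mice farthest in Scgb1a1. Cyp2f2 had r between 0.39 and 0.54 with the 5 genes, with an adjusted p from 0.0146 to 0.0395 for 4 of them and 0.0897 for Reg3g, and r between -0.05 and 0.13 on the residuals of dose and slide. The mice share slides, and the Cy3 signal that moves with Cy5 enters each ratio, so these relations hold for ratios on these arrays.

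**Figure D4:**
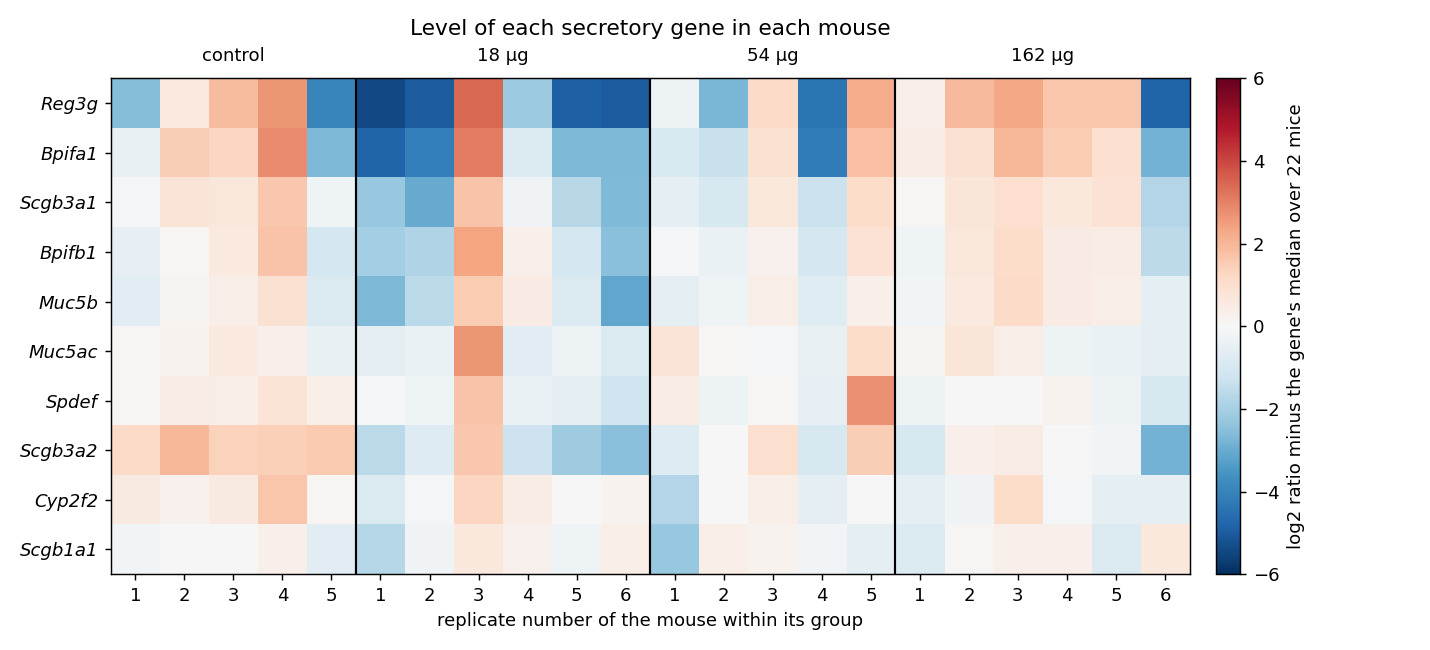
Log2 ratio of each gene (rows) in each mouse (columns, by group and replicate number) minus the median of the gene over the 22 mice, red above and blue below. Reg3g, Bpifa1, Scgb3a1 and Bpifb1 change colour together in single mice such as 18 µg replicate 3 (red) and 162 µg replicate 6 (blue), and Scgb3a2 is red in all 5 controls.

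Of the 3 genes most like each member over the 22 mice, 12 of 30 in all were other members, and Scgb1a1, Scgb3a2, Cyp2f2, Muc5ac and Spdef had none among theirs. The nearest gene to Reg3g was Bpifa1 (r = 0.96) and the nearest to Muc5b was Bpifb1 (r = 0.94). Tff2, a trefoil peptide of mucous epithelia, was the nearest to Scgb3a1 (r = 0.95) and among the 3 nearest of Bpifa1 (r = 0.93) and Reg3g (r = 0.95). Scgb3a2 was nearest to Deup1 (r = 0.95), which acts in making the many centrioles of ciliated cells, and to Dnah5 (r = 0.94), a dynein arm heavy chain of cilia. Cyp2f2 was nearest to the dehydrogenase Aldh1a7 (r = 0.87), the sulfurtransferase Tst (r = 0.85) and Aldh3a1 (r = 0.84). Scgb1a1 was nearest to Elapor1, Atp6v1c2 and Plekhb1 (r = 0.89 each). Muc5ac was nearest to the actin-severing protein Scin (r = 0.90), and Spdef to 4930444P10Rik, Adra2a and Calml3 (r = 0.85, 0.84 and 0.84).

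The promoters of genes that rose and fell together are shown beside that of Cyp2f2, whose r with them was lower and near 0 on the residuals of dose and slide. RefSeq promoters on GRCm38.p6 were found for 6 of the 10 genes, Cyp2f2, Scgb3a1, Bpifa1, Bpifb1, Reg3g and Spdef. Each sequence below is the 250 bases that end just before a RefSeq start site, 5′ to 3′ on the coding strand. Bpifb1 has 2 such sites, the first at the start of the gene and the second inside it, and both are shown. Capitals mark matches on either strand to a forkhead motif (TNTTTAC), a C/EBP motif (TTNNGCAA) or a STAT motif (TTCNNNGAA), which do not overlap each other here.
Bpifa1, chr2:154142630-154142879, plus strand: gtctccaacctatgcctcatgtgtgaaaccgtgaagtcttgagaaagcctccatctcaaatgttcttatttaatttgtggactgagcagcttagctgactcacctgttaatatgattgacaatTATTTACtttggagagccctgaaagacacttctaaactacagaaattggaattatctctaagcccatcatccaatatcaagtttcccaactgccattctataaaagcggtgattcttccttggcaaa
Bpifb1 first start, chr2:154190568-154190817, plus strand: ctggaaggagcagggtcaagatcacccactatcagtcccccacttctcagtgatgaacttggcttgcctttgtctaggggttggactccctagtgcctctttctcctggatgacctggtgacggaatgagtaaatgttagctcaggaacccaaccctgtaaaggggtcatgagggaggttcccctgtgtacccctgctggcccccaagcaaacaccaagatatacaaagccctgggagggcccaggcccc
Bpifb1 second start, chr2:154200130-154200379, plus strand: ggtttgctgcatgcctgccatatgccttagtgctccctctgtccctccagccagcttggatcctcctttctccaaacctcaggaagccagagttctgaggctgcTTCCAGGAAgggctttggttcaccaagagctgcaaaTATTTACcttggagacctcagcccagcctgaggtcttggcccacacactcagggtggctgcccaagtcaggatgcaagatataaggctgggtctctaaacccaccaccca
Scgb3a1, chr11:49663345-49663594, plus strand: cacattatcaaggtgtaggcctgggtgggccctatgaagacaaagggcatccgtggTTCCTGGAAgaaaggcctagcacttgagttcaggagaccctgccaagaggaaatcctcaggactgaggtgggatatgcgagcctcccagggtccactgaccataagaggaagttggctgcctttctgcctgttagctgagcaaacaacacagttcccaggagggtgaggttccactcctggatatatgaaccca
Reg3g, chr6:78468875-78469124, minus strand: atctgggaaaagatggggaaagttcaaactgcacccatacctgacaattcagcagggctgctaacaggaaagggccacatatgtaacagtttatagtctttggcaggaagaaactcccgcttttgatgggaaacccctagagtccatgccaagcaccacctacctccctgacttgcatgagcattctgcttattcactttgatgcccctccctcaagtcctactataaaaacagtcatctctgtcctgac
Cyp2f2, chr7:27119705-27119954, plus strand: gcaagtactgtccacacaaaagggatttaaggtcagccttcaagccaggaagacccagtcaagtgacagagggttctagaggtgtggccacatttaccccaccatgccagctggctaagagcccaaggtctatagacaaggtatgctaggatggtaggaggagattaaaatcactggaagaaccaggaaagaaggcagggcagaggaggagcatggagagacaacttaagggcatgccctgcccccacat
Bpifa1 and the second start of Bpifb1 each hold 1 forkhead match, TATTTAC in both, and both genes lie on chromosome 2 (154142880 to 154149217 and 154190818 to 154220343). Scgb3a1 and the second start of Bpifb1 each hold 1 STAT match. The first start of Bpifb1, Reg3g and Cyp2f2 hold no match to any of the 3 motifs. Spdef, not printed, holds 1 forkhead match, and no match to the C/EBP motif was found in any of them. Of 32851 RefSeq promoters of this length, 10.9% hold the forkhead motif, 9.56% the C/EBP motif and 7.02% the STAT motif. A match to letters shows no bound factor, and these windows leave out more distant sequence.

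Other club cell genes were mostly lower in exposed lungs. Of 24 measured and expressed genes of a list of 25, 7 were called lower at 18 µg, 1 at 54 µg and 3 at 162 µg, and none higher, beside 1.52%, 0.163% and 3.72% of all genes called lower. Genes of this and the following lists were not recomputed under alternative processing. Over all genes, the 252 called lower at 18 µg became 8 without the 6 dimmest arrays and 2 without normalization. The 616 called lower at 162 µg became 460 and 4. The median log2 fold change of the list was -0.72, -0.39 and -0.50, and 22, 18 and 19 of the 24 genes were under 0, as were 53.7%, 52.7% and 51.3% of all genes. Cyp2s1, a further P450 of the airway, fell by 1.15 (SE 0.20, adjusted p = 0.0144) at 18 µg and by 1.45 (SE 0.20, adjusted p = 0.000475) at 162 µg on the log2 scale. Upk3a, a membrane plaque protein found on a subset of club cells, fell at each dose, by 0.62 (adjusted p = 0.0392), 0.94 (adjusted p = 0.0167) and 1.11 (adjusted p = 0.000334). Por, the reductase that passes electrons to P450 enzymes, fell by 1.09 (SE 0.17, adjusted p = 0.0105) at 18 µg.

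The remaining calls at 18 µg were of detoxifying enzymes and a selenium-binding protein. Aldh1a1, a retinal dehydrogenase, fell by 1.11 (adjusted p = 0.031), the glutathione transferase Mgst1 by 0.85 (adjusted p = 0.0332) and the epoxide hydrolase Ephx1 by 0.71 (adjusted p = 0.0269). Selenbp1 fell by 1.00 at 18 µg (adjusted p = 0.0247) and was 1.66 higher at 162 µg than at 18 µg (SE 0.19, adjusted p = 0.000185). Gsta3, a glutathione transferase, was likewise 1.42 higher at 162 µg than at 18 µg (SE 0.25, adjusted p = 0.00358). Chad, a leucine-rich matrix protein, fell by 1.51 at 162 µg (SE 0.43, adjusted p = 0.0482). Cyp4b1, Sec14l3 and Cyp2b10, also club cell genes, had log2 fold changes of 0.23, 0.04 and 0.12 at 162 µg with adjusted p of 0.673, 0.961 and 0.81.

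Of 19 expressed goblet cell and mucus genes other than the members, 1 was called higher at 18 µg (Slc26a4) and 1 lower at 162 µg (Muc20), where 0.652% and 3.72% of all genes were. Slc26a4, the anion exchanger pendrin, rose by 3.06 (SE 0.73, adjusted p = 0.0481) at 18 µg and had log2 fold changes of 3.05 (adjusted p = 0.15) and 2.28 (adjusted p = 0.0785) at 54 and 162 µg. Muc20, a membrane mucin, fell by 1.24 (SE 0.29, adjusted p = 0.0154) at 162 µg. The median of the list was -0.03, 0.16 and -0.00 at the 3 doses. Clca1 and Agr2, secreted proteins of goblet cells, had log2 fold changes of -0.87 (SE 1.77) and -0.62 (SE 1.03) at 18 µg and 0.26 and 1.11 at 162 µg, with adjusted p from 0.671 to 0.971.

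Among 11 expressed antimicrobial secreted proteins other than the members, Lcn2 was called higher at 18 µg (1.14, SE 0.27, adjusted p = 0.0485) and 162 µg (1.65, SE 0.27, adjusted p = 0.00193). It was the only gene of the list called against control, beside 0.652% and 3.47% of all genes called higher at these doses. Lcn2 encodes lipocalin 2, which withholds iron carriers from bacteria, and its sources include neutrophils. Pigr, the receptor that carries IgA across epithelium, was 0.95 lower at 162 µg than at 18 µg (SE 0.20, adjusted p = 0.0115). Of 30 expressed transcription factors and signals of airway secretory cells, 1 was called lower and 2 higher at 162 µg, and none at the other doses. Over all genes, 3.72% were called lower and 3.47% higher at 162 µg. The forkhead factor Foxa1 fell by 1.05 (SE 0.24, adjusted p = 0.0154), the C/EBP factor Cebpd rose by 1.91 (SE 0.40, adjusted p = 0.00954) and the interleukin 4 and 13 receptor chain Il4ra rose by 0.73 (SE 0.16, adjusted p = 0.0101). Nkx2-1, the factor that keeps lung epithelial identity, had a log2 fold change of 0.02 (SE 0.19, adjusted p = 0.983) at that dose.

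Markers of ciliated cells, the neighbours of club cells in the airway lining, moved in the same direction as Scgb3a2 and Cyp2f2. All 12 were under 0 at each dose, with medians of -0.88, -0.47 and -0.89, and 2, 0 and 6 of them were called lower. Over all genes 53.7%, 52.7% and 51.3% were under 0 and 1.52%, 0.163% and 3.72% were called lower. The calls of ciliated cell markers were not recomputed under alternative processing. Control mice had a mean log2 ratio over the list of 3.25 to 3.65. The ranges for the low, middle and high doses were 1.76 to 3.68, 2.29 to 3.34 and 1.60 to 3.30. Foxj1, the master factor of motile cilia, had log2 fold changes of -0.56 (adjusted p = 0.337) and -0.40 (adjusted p = 0.498) at 18 and 162 µg, while the axonemal protein Hydin fell by 1.14 (adjusted p = 0.0172) and 1.30 (adjusted p = 0.00126). The airway basal cell list (4 genes) had medians of 0.10, 0.16 and -0.28 and no call. Markers of the epithelium in general (5 genes) also had no call, with medians of -0.02, -0.01 and 0.29, as did neutrophil markers (7 genes), with medians of -0.06, 0.19 and 0.64. Control replicate 2 was high in neutrophil markers, with a mean log2 ratio of 4.60, and the other controls had 1.86 to 2.45. The mice at 162 µg had 2.12 to 4.42. The part of ciliated and other cells in the change of the secretory genes was not tested.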

How the data were processed

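RNA of 22 lungs was hybridised to dual-colour Agilent arrays with 55681 probes. The deposited files hold each spot's median intensity in both colours, written by Feature Extraction 10.7.3.1, and normalized log2 ratios that the authors deposited as 1 table served as an alternative. Median intensities without background subtraction were normalized by loess (span 0.3) in limma 3.58.1 (R 4.3.3), control and outlier spots were left out, and replicate spots were summarised by their median. Dose and slide (7 slides, 12 residual degrees of freedom) were fitted over all probes, with Benjamini-Hochberg adjustment. A probe was expressed when its Cy5 exceeded the 5% trimmed mean plus 3 trimmed SD of 308 negative control spots on 80% of the arrays of a group, and the brightest probe stood for a gene. Names came from RefSeq accessions (26413 probes) or from tables of the study (201, among them both Scgb3a2 probes), and 29067 probes stayed unnamed. Cy5 and Cy3 were also fitted alone, scaled to the 75th percentile of each array. The fit was tested on simulated data.

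The genes and the gene lists were chosen with earlier results of these data known. Genes named are the 10 members, the called genes of the lists, a few listed genes with a defining role, and the 3 genes most like each member by Pearson r. Groups follow the sample labels, each array is 1 mouse, and the number of arrays limits the precision. Alternatives changed the background correction, normalization, slide term, filter and probe summary, or left out each mouse.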

Additional observations from a re-analysis of the deposited data

Results flagged for a closer look

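Of 40 sets of values (10 genes in 4 groups), 8 held a mouse that stood apart from the rest of its group by Dixon's test, where chance flags about 1 in 20. The log2 ratio of 162 µg replicate 6 was the low one for Scgb3a1 (3.50), Bpifa1 (2.57) and Reg3g (0.98), and this array also had the lowest Cy5 signal over background (1.18). That of 18 µg replicate 3 was the high one for Reg3g (9.23) and Muc5ac (3.32). For Cyp2f2, control replicate 4 (8.13) and 162 µg replicate 3 (7.58) were high, and both were on the same slide. For Spdef, 54 µg replicate 5 was high (4.74). The part of array quality and slide in these values was not tested.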

How the results depend on the processing

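Of 40 values 3 were called. Of 39 alternatives, 22 left out 1 mouse and the rest changed the processing. The call of Scgb3a2 was lost in 20 at 18 µg, 15 of them omissions of a mouse, and in 18 at 162 µg, 14 of them omissions. The call of Cyp2f2 at 162 µg was lost in 7, and 0 of these were omissions. Dropping the fold threshold or the filter on dim probes could not remove a call. None of 1560 recomputed values reversed a call, but alternatives that changed only the rule for a call could not change a sign. The sign changed in 119 recomputations of 19 uncalled values. At 18 µg, where 1 member was called lower, 0 were called without normalization, with the deposited log2 table, with no slide term, with only the 2 groups compared and without the 6 dimmest arrays, and 2 with Cy5 alone, with Cy5 quantile normalized across both channels and with Cy5 without the dimmest arrays. Leaving out 1 mouse gave 0 to 2. At 54 µg, where 0 were called, 3 were called with only the 2 groups compared (Scgb3a1, Scgb3a2 and Bpifa1) and 1 with Cy5 without the dimmest arrays (Cyp2f2), and leaving out 1 mouse gave 0 to 1. At 162 µg, where 2 were called, 0 were called under median centring, without normalization and with no slide term, and 1 under quantile normalization between arrays, with the deposited log2 table, with slide as a random block, with the replicate number as a block and without the dimmest arrays, while 3 were called with only the 2 groups compared (Scgb3a2, Cyp2f2 and Spdef). Leaving out 1 mouse gave 1 to 2. Between 162 µg and 18 µg, where 0 were called, leaving out 1 mouse gave 0 to 2. With slide kept, a fit of only 2 groups rests on the slides that held both. For the comparisons with control these were 4 slides at 18 µg, 3 at 54 µg and 4 at 162 µg. The causes were not tested.

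Same-numbered mice had residual correlations from -0.265 to 0.628, with a median of 0.207 and 18 of 31 pairs over 0.1, against -0.0665 and 36 of 150 for other pairs. Mice that shared a slide had correlations from -0.333 to 0.628, with a median of 0.271 and 18 of 24 pairs over 0.1. Since not every same-numbered pair was over 0.1, the numbers were not taken to pair the mice and the block is only an alternative. Not every pair on a shared slide was over 0.1 either. Slide was fitted because the model of the study included a slide effect. Over all genes at 18 µg, 252 were called lower and 108 higher, 114 and 0 under median centring, which moved the median of all genes to -0.26, 2 and 0 without normalization (-0.42), 58 and 60 with only the 2 groups compared, and 8 and 2 without the dimmest arrays. At 162 µg the 616 lower and 574 higher became 273 and 89 under median centring. In Cy5, Muc5ac lay nearest to background. In Cy3, Muc5ac was well above background on 19 of 22 arrays, Bpifa1 and the brighter Scgb3a2 probe on 13 each, Reg3g on 7 and the second Scgb3a2 probe on 4.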

Other observations

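Markers of other lung cells were called in a few cases. Over all genes, 0.652% were called higher than in controls at 18 µg and 3.47% at 162 µg. Between 162 µg and 18 µg, 3.41% were called higher. Marco, a scavenger receptor of alveolar macrophages, was higher at 162 µg (1.51 on the log2 scale, SE 0.28, adjusted p = 0.00457), and Chil3, a chitinase-like protein of the same cells, at 18 µg (1.73, SE 0.41, adjusted p = 0.0454). Calca, the calcitonin gene-related peptide gene of neuroendocrine cells, was higher at 162 µg than in controls (1.44, SE 0.35, adjusted p = 0.0219) and than at 18 µg (1.90, SE 0.33, adjusted p = 0.00344). Pdpn, a type I alveolar cell marker, rose by 1.04 (SE 0.21, adjusted p = 0.00667) and Napsa, an aspartic protease of type II cells, by 0.72 (SE 0.19, adjusted p = 0.0354) at 162 µg. Neutrophil markers had a mean log2 ratio of 4.60 in control replicate 2, above all other mice, against 1.86 in the lowest control.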
